A study of Mus musculus with 14 samples.

Results

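OCP4, the double-positive fraction of a cell sort, was compared with OCP2, the double-negative fraction of the same sort. The members are the arrays whose titles name these fractions, 4 of OCP4 and 3 of OCP2, which together are 7 of the 14 arrays in the series. The RNA came from the limbs of mouse embryos (strain C57BL/6, embryonic day 16.5). Collagenase and dispase were used to free the cells, red cells were lysed, and the rest were stained with antibodies and separated by flow cytometry. Every fraction carried CD9, a tetraspanin membrane protein. OCP4 was CD73+Thy1+ and OCP2 was CD73-Thy1-. The fractions with a single marker were OCP1, which is CD73+Thy1- and has 3 arrays, and OCP3, which is CD73-Thy1+ and has 4. OCP4 and OCP2 thus differ in both markers at once, and OCP1 and OCP3 carry 1 of them each. Their levels are given below only where they show what a single marker goes with.

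The series calls these cells osteochondroprogenitors, precursors that can form cartilage and bone. In the developing limb, Sox9-expressing precursors condense and become chondrocytes, Runx2 and Sp7 direct osteoblast formation, and canonical Wnt signalling shifts precursors from the cartilage to the bone fate. CD73, encoded by Nt5e, is a surface enzyme that makes adenosine from AMP, and Thy1 is a GPI-anchored surface protein used to sort mesenchymal cells and fibroblasts. The same embryonic limbs hold skin, tendon, muscle, nerve and vessels, and a sort on CD9, CD73 and Thy1 names none of these tissues. The labels give neither the fore- or hindlimb origin nor whether replicates came from separate embryos, so each p-value reflects only how far these samples spread, and that spread may be technical.

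Each array is a Mouse Gene 1.0 ST array, and a level is the log2 of its normalised probe-set intensity. Array medians were 328.1 to 346.8 intensity units over the 14 arrays. Across genes, Pearson correlations were 0.9963 to 0.9979 for 9 pairs of arrays within OCP4 or OCP2, and 0.9843 to 0.9898 for 12 pairs between them. A log2 difference is OCP4 minus OCP2 with its standard error (SE), and a gene is called when its adjusted p is below 0.05 in limma with Benjamini-Hochberg adjustment over 21734 genes. "Higher", "rose", "lower" and "fell" refer to OCP4 relative to OCP2. Levels of different genes are not compared, because probe sets differ in brightness, and no detection calls were used.

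The RNA of both sorted markers followed the sort. Nt5e read 13.17, 12.98, 13.24 and 13.37 in the OCP4 arrays, against 9.35, 9.14 and 9.42 in the OCP2 arrays. This is a log2 difference of 3.89 ± 0.18, or 14.8-fold (adjusted p = 2.23e-09). Thy1 read 13.12, 13.20, 13.27 and 13.26 in OCP4, against 9.87, 9.74 and 9.19 in OCP2, a difference of 3.62 ± 0.13 or 12.3-fold (adjusted p = 1.47e-10). Neither gene overlapped between the groups. Cd9, which all fractions carried at the surface, was 1.39-fold lower in OCP4 RNA (-0.47 ± 0.09, adjusted p = 0.000905). As these genes define the fractions, their differences check the labels and are not findings.

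Of the 21734 genes, 5251 (24.2%) were called, 2258 of them higher in OCP4 (10.4%) and 2993 lower (13.8%). Higher genes thus made up 43.0% of the calls, a share that became 62.1% when each array was centred on its median instead. At least 2-fold differences were called for 520 genes (2.39%), 233 higher (1.07%) and 287 lower (1.32%). The median difference over all genes was 0.01, with quartiles at -0.11 and 0.11. These shares are the background for the counts of gene lists that follow. The same test over all probe sets called 5529, and the authors' deposited table also had 5529 below the threshold.

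**Figure D1:**
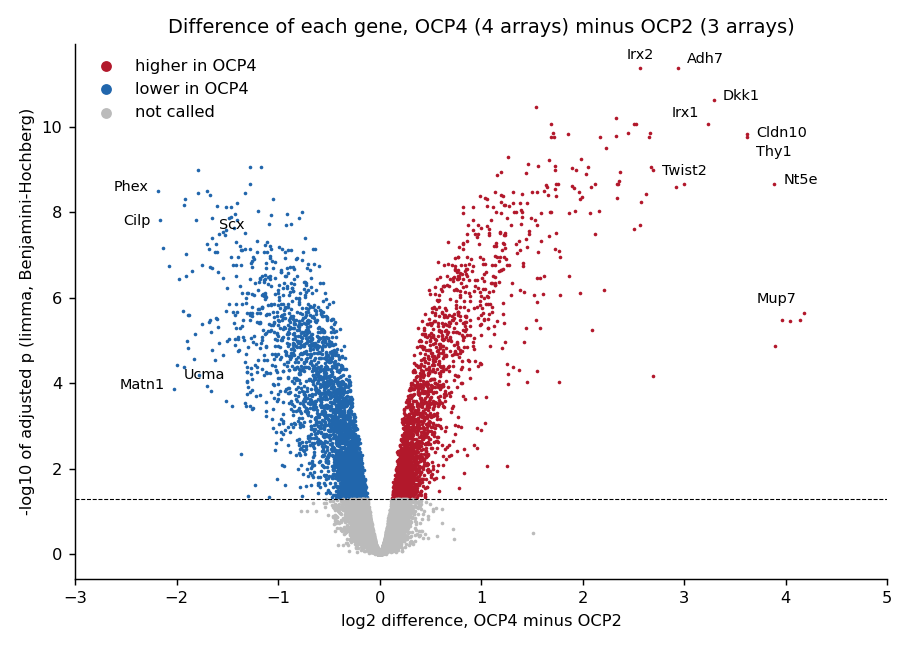
Each point is a gene, placed by its log2 difference of OCP4 (4 arrays) minus OCP2 (3 arrays) and by −log10 of its adjusted p, with the threshold of 0.05 dashed. The points farthest right include the sort genes Nt5e and Thy1, Cldn10, Dkk1 and the Mup probe sets, and the farthest left Phex, Cilp and Matn1.

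Cldn10, Dkk1 and Twist2 were listed as markers of OCP4 with earlier results of these data known, so their rise is not independent support. All 3 rose. Their groups did not overlap, but this was a condition for naming the genes with the largest differences. It also holds for nearly all called genes named here, so it is not further support. Cldn10 encodes a claudin, a membrane protein that forms ion-selective channels between neighbouring cells. Its levels were 11.23, 10.63, 11.23 and 11.26 in OCP4, against 7.47, 7.56 and 7.39 in OCP2. The difference was 3.62 ± 0.13 (adjusted p = 1.73e-10), with OCP4 replicate 2 lowest of its group but still far above every OCP2 array. The second probe set of Cldn10 differed by 3.21. Twist2 encodes a basic helix-loop-helix factor that marks dermal precursors and restrains osteoblast differentiation. It read 13.96, 13.86, 14.02 and 14.04 in OCP4, against 11.28, 11.17 and 11.37 in OCP2, which is 6.48-fold (2.70 ± 0.12, adjusted p = 1.02e-09). Its paralogue Twist1 rose by 1.44 ± 0.06.

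Dkk1 encodes a secreted antagonist that binds the Wnt co-receptors Lrp5 and Lrp6. It read 12.12, 12.09, 12.12 and 12.31 in OCP4, against 9.04, 8.76 and 8.81 in OCP2. The difference was 3.29 ± 0.09, or 9.78-fold (adjusted p = 2.43e-11). The 4 OCP4 arrays lay within a narrow band, and the highest of the OCP2 arrays remained well below it.

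OCP1 and OCP3 show what each surface marker goes with alone. Cldn10 averaged 11.09 in OCP4, 7.68 in OCP1, 7.63 in OCP3 and 7.47 in OCP2, so the differences of the single-positive fractions from OCP2 added up to only 0.37 of the 3.62. The interaction of CD73 and Thy1, the amount by which OCP4 exceeds that sum, was 3.25 ± 0.18 (adjusted p = 5.83e-08). For Dkk1 the sum was 1.26 and the interaction 2.03 ± 0.13 (adjusted p = 1.39e-07). Twist2 had a sum of 1.32 and an interaction of 1.38 ± 0.16 (adjusted p = 3.93e-05). A gene picked as high in OCP4 tends to have a positive interaction, so these values only describe the markers. Among all genes, 3915 (18%) had a called interaction. The 17 genes examined for it were the sort genes, the 3 markers and the few genes with the largest difference in each direction, mostly Mup probe sets among the higher ones. Of these, 5 were called: these 3, Thy1 (0.89 ± 0.18) and, negatively, Cd9 (-0.82 ± 0.12). For Nt5e the interaction was 0.75 ± 0.26 (adjusted p = 0.0587). A positive interaction was not particular to the markers. Outside the 17, it was called for Adh7 (2.27 ± 0.10, adjusted p = 6.13e-09) and Irx1 (2.17 ± 0.15, adjusted p = 2.7e-07), but not for Akr1c18 (1.42 ± 0.52, adjusted p = 0.0793). Among lower genes, calls went both ways, as for Coch (1.01 ± 0.14) and Adamtsl3 (-1.35 ± 0.22).

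**Figure D2:**
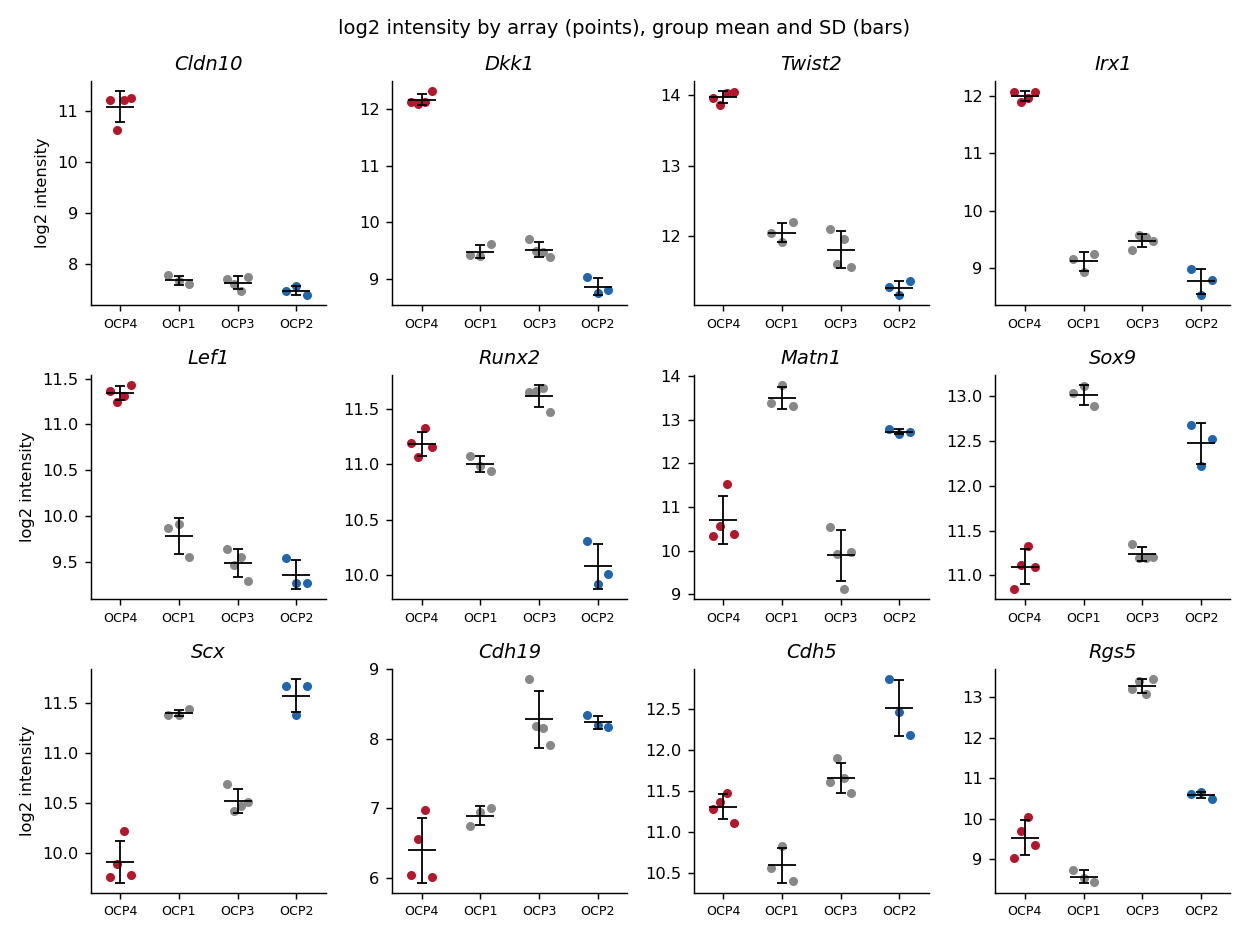
Log2 intensity of 12 genes in every array, with OCP4 at the left and OCP2 at the right of each panel (OCP1 and OCP3 between them), points for arrays and bars for the group mean and SD. Cldn10, Dkk1, Twist2, Irx1 and Lef1 are highest in OCP4 among the 4 fractions, while Matn1 and Sox9 sit high in OCP1 and OCP2, and Cdh19 in OCP3 and OCP2.

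Genes of the Wnt pathway were higher in OCP4 more often than lower. Wnt proteins bind Frizzled receptors with Lrp5 or Lrp6 and stabilise beta-catenin, which acts on target genes with the TCF and LEF factors. R-spondins raise the receptor level through Lgr receptors, and Dkk, Sfrp and Wif proteins antagonise the pathway outside the cell. Of 34 listed genes, 20 rose, 11 fell and 3 were not called, with a median difference of 0.53 beside 0.01 for all genes. The list includes Dkk1, which also marks OCP4.

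The 5 transcription factors and feedback targets in the list rose. The list leaves out 2 TCF factors, of which Tcf7l2 was lower (-0.58 ± 0.05, adjusted p = 4.4e-07) and Tcf7l1 was not called (-0.10 ± 0.05). Lef1, a DNA-binding partner of beta-catenin, read 11.37, 11.25, 11.31 and 11.43 in OCP4, against 9.54, 9.27 and 9.27 in OCP2, a difference of 1.98 ± 0.10 (adjusted p = 5e-09). Tcf7, a factor of the same family, read 10.07, 10.23, 10.07 and 10.24 in OCP4, against 8.37, 8.24 and 8.04 in OCP2 (1.94 ± 0.08, adjusted p = 1.01e-09). Neither overlapped between the groups, which was the case for nearly all called genes named here and is not further support. Axin2, a scaffold of the beta-catenin destruction complex and a widely used target gene, rose by 1.73 ± 0.09. The intracellular Wnt inhibitors Nkd1 and Nkd2 rose by 1.69 and 1.19.

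Ligands and receptors moved in both directions. Rspo1 was 4.15-fold higher, at 11.24, 10.91, 11.05 and 11.15 in OCP4, against 9.11, 8.93 and 9.05 in OCP2 (2.05 ± 0.09, adjusted p = 8.52e-10). Rspo3 rose by 1.18 ± 0.08, whereas Rspo2 was lower by 1.12 (-1.12 ± 0.08). The ligand genes Wnt2, Wnt4, Wnt5a and Wnt11 rose by 0.62 to 0.82, and Wnt5b and Wnt9a were not called at -0.10 and -0.12. Wnt2 lost its call without OCP2 replicate 2 or 3 or OCP4 replicate 2 or 4 (adjusted p 0.0521 to 0.126). Among receptors, Fzd8 changed most, at -1.46 ± 0.08, and Fzd4 differed by -0.76. Fzd1 rose by 0.66, and the co-receptor genes Lrp5 and Lrp6 were slightly lower at -0.18 and -0.29. Lrp5 was not called without OCP2 replicate 1, OCP4 replicate 1 or OCP4 replicate 4 (adjusted p 0.0559 to 0.115) or with arrays centred on their medians (adjusted p = 0.0989), nor with only the 7 arrays of both groups or with the replicate number as a block (adjusted p = 0.0679 in each). Lgr5 rose by 0.69 and Lgr4 differed by -0.62.

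Antagonist genes were also divided. Besides Dkk1, Wif1, whose product binds Wnt proteins, rose by 1.45 ± 0.08. Kremen1, a receptor for Dkk proteins, rose by 1.16 ± 0.05, and Notum, a secreted enzyme that inactivates Wnt, by 0.51, although its dimmer probe set differed by 0.10. Lower were Sfrp1 (-1.13 ± 0.09), Dkk2 (-0.87 ± 0.12), Frzb (-0.71) and Dkk3 (-0.42).

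**Figure D3:**
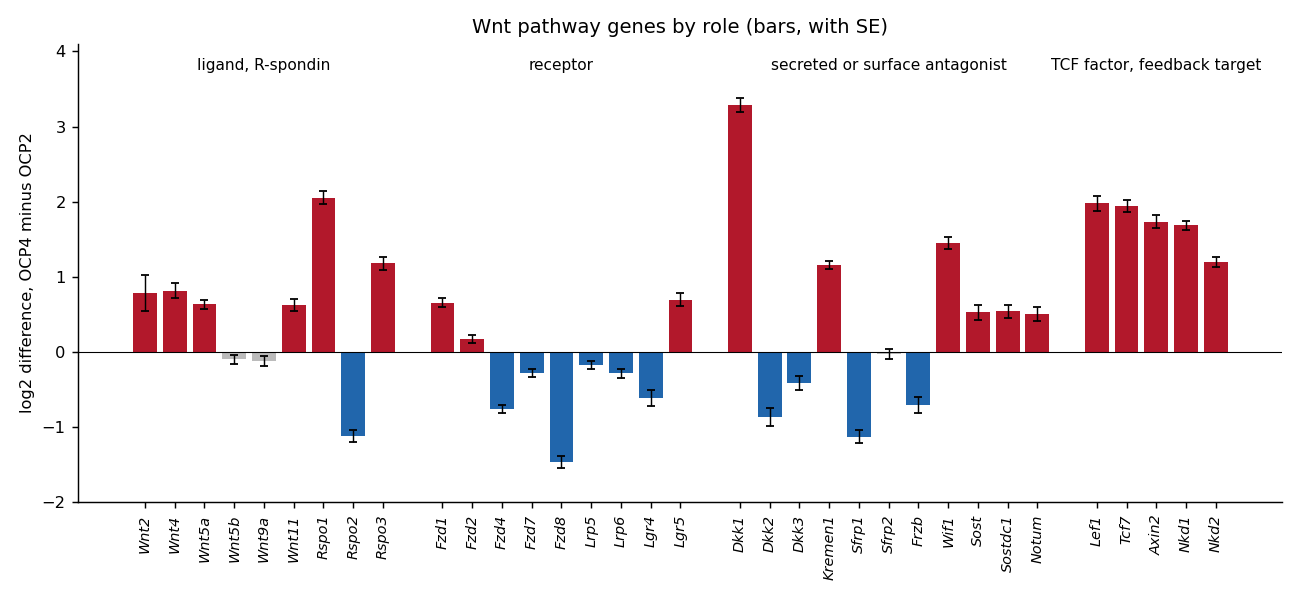
Log2 difference (OCP4 minus OCP2) of the 34 listed Wnt pathway genes by role, with bars for the estimate and whiskers for the SE, red for higher, blue for lower and grey for not called. The 5 listed TCF factors and feedback targets rose, while ligands, receptors and antagonists hold both directions. Tcf7l2, a TCF factor outside the list that was lower, is not drawn.

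A promoter window of each of Dkk1 and Lef1 is shown because both genes rose strongly in OCP4. The windows were also picked because each holds the core motif of LEF and TCF factors, CTTTGA, in either orientation (TCAAAG on the strand shown). The windows are the 250 bases before the RefSeq transcription start in GRCm38.p6, chr19:30549497-30549746 on the minus strand for Dkk1 and chr3:131156044-131156293 on the plus strand for Lef1, whose window belongs to the most downstream of 4 listed starts. Capitals mark the motif, which occurs 2 times in each window shown. The windows of the other listed Lef1 starts held no match and are not shown.
Dkk1: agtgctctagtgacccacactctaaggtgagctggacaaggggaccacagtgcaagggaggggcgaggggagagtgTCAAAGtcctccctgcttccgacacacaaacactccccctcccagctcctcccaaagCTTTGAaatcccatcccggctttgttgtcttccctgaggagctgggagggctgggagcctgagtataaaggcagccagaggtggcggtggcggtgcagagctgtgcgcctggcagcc
Lef1: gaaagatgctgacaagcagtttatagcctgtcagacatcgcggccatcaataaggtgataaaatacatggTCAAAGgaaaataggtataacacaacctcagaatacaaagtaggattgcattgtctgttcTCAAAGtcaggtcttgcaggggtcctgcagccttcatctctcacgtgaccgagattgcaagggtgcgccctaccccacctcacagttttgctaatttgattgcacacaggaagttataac
The motif was found in 13.8% of 32851 such windows, and 15.8% of 27025 genes held it in at least 1 window. Of the 20 Wnt pathway genes that rose, 13 had a window and 4 of these held the motif (Dkk1, Fzd1, Lef1 and Wnt11). Among the 11 that were lower, 5 had a window and 1 held it (Frzb). A match describes these letters, and binding was not measured.

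Genes known from embryonic dermis and the dermal papilla of hair follicles were mostly higher. Of 22 measured genes, 16 rose and 1 was lower, with a median difference of 0.79. The list includes Dkk1, Twist2 and Lef1. Their neighbours in it were Prdm1, a repressor of transcription found in dermal papilla precursors, with 10.37, 10.60, 10.56 and 10.95 in OCP4, against 8.67, 8.48 and 8.22 in OCP2 (2.16 ± 0.12, adjusted p = 9.16e-09). Sox18, a factor of the dermal papilla and of endothelium, rose by 1.25 ± 0.16. The homeobox gene En1 rose by 0.84 and Dpp4, a surface peptidase of upper dermal fibroblasts, by 0.83. Crabp1, which binds retinoic acid in the cytoplasm, rose by 0.76 ± 0.06, while its paralogue Crabp2 was lower (-0.75 ± 0.11). The general fibroblast markers Pdgfra and Cd34 were not called, at 0.01 ± 0.06 and 0.08 ± 0.06. The summed intensity of the 22 genes was 135860 to 141513 in the OCP4 arrays and 85049 to 90093 in the OCP2 arrays. This sum includes Dkk1 and Twist2, which were picked as high in OCP4, and bright probe sets weigh most in it. The gap is therefore partly set by that choice and is not independent support. In sorted bulk samples, more cells of a type and more RNA per cell cannot be told apart, and this holds for each cell-type list below. Without OCP2 replicate 2, 2 genes of this list were lower.

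Iroquois homeobox genes rose by some of the largest amounts. Irx1 and Irx2 lie in one Iroquois cluster and Irx3 and Irx5 in the other, and both clusters serve patterning of the embryo. Irx1 read 12.07, 11.89, 11.96 and 12.07 in OCP4, against 8.98, 8.53 and 8.79 in OCP2 (3.23 ± 0.10, adjusted p = 8.59e-11). In OCP1 it averaged 9.12 and in OCP3 9.48. Irx2 differed by 2.57 ± 0.06, Irx5 by 2.35 ± 0.11 and Irx3 by 2.04 ± 0.09, although the dimmer probe set of Irx3 differed by 0.40. These 4 of the 6 measured Irx genes were called, and none was lower in any scaling tried. Zic1, a zinc-finger factor, rose by 1.73 ± 0.12.

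Other genes with large increases included several enzymes. Pappa2, a protease of IGF binding proteins, rose by 2.92 ± 0.14, and its 2 other probe sets by 2.90 and 3.08. Adh7, a dehydrogenase able to oxidise retinol, rose by 2.94 ± 0.07. Akr1c18, a steroid dehydrogenase that inactivates progesterone, rose by 2.69 ± 0.37, with a wide spread in OCP4 (8.35 to 10.06).

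The largest log2 differences of all came from probe sets of the major urinary proteins, lipocalins best known from liver and urine. Mup7 read 10.54, 10.04, 10.88 and 11.46 in OCP4, against 6.78, 6.37 and 6.51 in OCP2 (4.18 ± 0.40, adjusted p = 2.31e-06). Mup2, Mup11, Mup19 and Mup1 differed by 3.90 to 4.14 and followed the same order over the OCP4 arrays, with replicate 4 highest and replicate 2 lowest. OCP1 averaged 8.19 and OCP3 8.77 for Mup7, between the other fractions. Mup genes are near-identical copies, so their probe sets cannot be assigned to single genes and these values count as 1 uncertain observation. Of 10 Mup symbols, 9 were called higher.

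Cartilage genes were lower in OCP4 as a group. Chondrocytes build a matrix of type II, IX and XI collagens, aggrecan, matrilins and link protein under the control of Sox9, Sox5 and Sox6. Of 24 measured cartilage genes, 23 fell and none rose, with a median of -1.28 beside 0.01 for all genes, and the remaining gene, Prelp, differed by -0.25 ± 0.09 and was called without OCP4 replicate 4 (adjusted p = 0.0361). Matn1, the matrilin typical of cartilage, read 10.34, 10.56, 11.52 and 10.39 in OCP4, against 12.78, 12.67 and 12.73 in OCP2 (-2.02 ± 0.30, adjusted p = 0.000134). OCP4 replicate 3 stood above the other OCP4 arrays, and still below every OCP2 array.

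The chondrocyte regulators and matrix genes went the same way. Sox9, the factor needed to form cartilage, read 10.85, 11.12, 11.33 and 11.09 in OCP4, against 12.68, 12.22 and 12.52 in OCP2 (-1.38 ± 0.11, adjusted p = 5.37e-07). Its co-factors Sox5 and Sox6 differed by -1.62 ± 0.20 and -0.81 ± 0.11. Acan, the main cartilage proteoglycan, differed by -1.27 ± 0.14 and Col2a1, the main cartilage collagen, by -1.14 ± 0.14. Cytl1, a secreted product of chondrocytes, differed by -1.90 ± 0.21, and Ucma, another, was also lower (adjusted p = 3.69e-05). Matn3 differed by -1.89 ± 0.22 and Lect1, the gene of chondromodulin now named Cnmd, by -1.78 ± 0.24. The cartilage genes named here were highest in OCP1: Acan averaged 11.48 in OCP4, 13.69 in OCP1, 11.85 in OCP3 and 12.75 in OCP2. OCP4 was not the lowest fraction for all of them. Matn1 averaged 10.70 in OCP4 and 9.89 in OCP3, and Col2a1 11.66 and 11.25, whereas Sox9 averaged 11.10 and 11.24. Summed intensity of the list was 30767 to 49499 in OCP4 and 79423 to 99049 in OCP2, and its mean level was highest in replicate 3 among the OCP4 arrays.

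The probe set of the microRNA gene Mir140, known from cartilage, was also lower, a choice made after its values were seen. It read 5.86, 5.89, 6.07 and 5.92 in OCP4, against 7.41, 7.17 and 7.99 in OCP2 (-1.59 ± 0.18, adjusted p = 1.15e-05). The gene lies inside Wwp2, which encodes a ubiquitin ligase and differed by -1.03 ± 0.13. Of 324 microRNA probe sets, 15 were called (4.63%), 9 higher and 6 lower. The array measures the transcript of the gene, not a mature arm. The RefSeq sequences in GRCm38.p6 are printed to show what it encodes, with capitals for the seed (bases 2 to 8) in the mature arm at chr8:107551288-107551308 and for that arm in the hairpin at chr8:107551244-107551313.
mmu-miR-140-3p: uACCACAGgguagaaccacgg
Mir140 hairpin: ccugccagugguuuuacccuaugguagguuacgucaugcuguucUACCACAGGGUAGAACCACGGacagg

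Genes of maturing cartilage did not all follow the cartilage matrix. Of 12 genes listed for hypertrophic cartilage and its control, 6 rose and 4 were lower, with a median of 0.35. Besides Fgfr3, the lower ones were Pthlh (-0.57 ± 0.09), Nkx3-2 (-0.45 ± 0.07) and Bmp6 (-0.37 ± 0.09). Pth1r, the receptor for parathyroid hormone and its related peptide, read 12.68, 12.61, 12.58 and 12.61 in OCP4 and 11.08 in every OCP2 array (1.54 ± 0.04, adjusted p = 3.45e-11). Loxl4, a collagen cross-linking oxidase, rose by 1.90 ± 0.08 and Runx3, a factor of chondrocyte maturation, by 1.67 ± 0.10. Mmp13, a collagenase of hypertrophic cartilage and bone, rose by 1.54 ± 0.15. It averaged 10.08 in OCP4, 11.37 in OCP1 and 11.43 in OCP3, and Loxl4 averaged 10.74 in OCP4 and 11.01 in OCP1. Pth1r and Runx3 were highest in OCP4. Col10a1, the collagen of hypertrophic cartilage, read 10.44, 10.32, 11.28 and 10.87 in OCP4, against 9.46, 9.35 and 9.62 in OCP2 (1.25 ± 0.31, adjusted p = 0.0086). OCP1 was far above both, at 13.12. Fgfr3, a growth plate receptor, was lower (-0.79 ± 0.13), and Ihh, the hedgehog ligand of prehypertrophic cells, was not called at -0.08 ± 0.10.

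The osteoblast regulators Runx2 and Sp7 rose, and genes of bone matrix were mixed. Of 20 osteoblast and bone matrix genes, 6 rose and 4 were lower, with a median of 0.01. Runx2, the factor that starts osteoblast formation, read 11.19, 11.07, 11.33 and 11.16 in OCP4, against 10.31, 9.92 and 10.01 in OCP2 (1.10 ± 0.09, adjusted p = 4.53e-07), and its dimmer probe set differed by 0.61. Sp7, the next factor in the lineage, rose by 0.49 ± 0.10. Sp7 averaged 9.40 in OCP4, 9.85 in OCP1, 10.58 in OCP3 and 8.91 in OCP2, so OCP4 was not its highest fraction.

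Phex, an endopeptidase-like protein of osteoblasts and osteocytes that affects phosphate balance, had the lowest difference of all genes named here. It read 8.57, 8.73, 8.96 and 8.49 in OCP4, against 10.76, 10.93 and 10.93 in OCP2 (-2.19 ± 0.11, adjusted p = 3.15e-09). Ibsp, a bone sialoprotein, differed by -0.65 ± 0.17 and the adhesion gene Cadm1 by -0.64 ± 0.11. Alpl and Bglap, which mark mineralising osteoblasts, were not called at 0.04 ± 0.12 and 0.13 ± 0.14, nor was Spp1 at -0.38 ± 0.16. Spp1 was called lower without OCP4 replicate 3 (-0.56, adjusted p = 0.00194). The osteocyte gene Dmp1 differed by -0.46 ± 0.12 and lost its call without OCP2 replicate 1 (-0.41, adjusted p = 0.0571).

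Tendon and ligament genes were lower. Of 12 measured genes, 8 fell and none rose, with a median of -0.80. Scx, the factor that marks tendon precursors, read 9.77, 9.89, 10.22 and 9.79 in OCP4, against 11.67, 11.38 and 11.67 in OCP2 (-1.66 ± 0.10, adjusted p = 3.93e-08). Cilp, a matrix protein of cartilage and tendon, differed by -2.16 ± 0.12. Thbs4, a tendon matrix protein, differed by -1.52 ± 0.08, Mkx, a homeobox factor of tendon, by -1.25 ± 0.14, and Tnmd, a membrane glycoprotein of mature tendon, by -1.13 ± 0.10. Egr1, which is also induced by tissue handling, was not called (0.06 ± 0.06). Summed intensity of the list was 57917 to 64763 in OCP4 and 84419 to 92056 in OCP2.

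Genes of the joint interzone and articular surface showed 4 increases and 6 decreases among 12, with a median of -0.18. Prg4, the lubricant of the joint surface, read 7.94, 8.38, 8.71 and 7.98 in OCP4, against 10.02, 9.90 and 10.47 in OCP2 (-1.87 ± 0.18, adjusted p = 2.55e-06). The joint growth factors Gdf6 and Gdf5 differed by -0.80 ± 0.10 and -0.67 ± 0.09, and Dcx by -1.16 ± 0.13. Wnt4 and the ETS factor Erg rose, by 0.82 ± 0.10 and 0.51 ± 0.11.

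Genes of fibrous connective tissue moved little. Of 24, 8 rose and 4 were lower, with a median of 0.07. Lum, a collagen-binding proteoglycan, rose by 0.89 ± 0.08, Fbln1 by 0.49 ± 0.05, Col3a1, the collagen of loose tissue, by 0.46 ± 0.05 and Dcn by 0.23 ± 0.06. Tcf7l2, the TCF factor named above, which also marks muscle connective tissue, was lower (-0.58 ± 0.05). The count of lower genes was 2 without OCP2 replicate 2, 1 without OCP2 replicate 3 and 1 with arrays centred on their medians.

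Genes of the stromal niche that supports blood formation in marrow were lower for 9 of 14 and higher for 3, with a median of -0.46. Ebf3, a factor of marrow stromal cells, differed by -1.41 ± 0.09, and the forkhead factor Foxc1 by -1.18 ± 0.14. Ebf2 differed by -1.90 ± 0.13, although its dimmer probe set read -0.38. The chemokine Cxcl12 differed by -0.55 ± 0.06 and Angpt1 by -1.07 ± 0.11. Kitl, the ligand of the Kit receptor, rose by 0.99 ± 0.09, and Lepr, the leptin receptor, by 0.84 ± 0.08.

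Among markers of vessels, nerve and muscle, more were called lower in OCP4 than higher. All 13 Schwann cell and nerve genes fell, with a median of -1.12 and a summed intensity of 9731 to 11516 in OCP4, against 21244 to 25861 in OCP2. Cdh19, a cadherin of Schwann cell precursors, read 6.04, 6.56, 6.98 and 6.01 in OCP4, against 8.34, 8.19 and 8.17 in OCP2 (-1.83 ± 0.23, adjusted p = 2.66e-05). The neural crest factor Sox10 differed by -0.91 ± 0.10, Fabp7 by -1.65 ± 0.20 and Gfra3 by -1.54 ± 0.19. Cdh19 averaged 6.40 in OCP4, 6.90 in OCP1, 8.28 in OCP3 and 8.23 in OCP2.

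Of 16 endothelial genes, 12 were lower and 2 higher, with a median of -0.84. Cdh5, the cadherin of endothelial junctions, read 11.29, 11.37, 11.48 and 11.11 in OCP4, against 12.87, 12.47 and 12.19 in OCP2 (-1.19 ± 0.15, adjusted p = 2.79e-05). Cd93 differed by -1.61 ± 0.16, Pecam1 by -1.31 ± 0.16, Emcn by -1.31 ± 0.19, Esam by -1.22 ± 0.19 and the VEGF receptor Kdr by -1.17 ± 0.18. The genes that rose were Sox18 and Erg, which other lists also hold. Summed intensity was 19840 to 23018 in OCP4 and 27629 to 42655 in OCP2, and the OCP2 arrays differed among themselves, with replicate 1 highest.

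Pericyte and smooth muscle genes were lower for 10 of 14 and higher for 3, with a median of -0.79. Rgs5, a pericyte marker, read 9.04, 9.70, 10.04 and 9.35 in OCP4, against 10.60, 10.65 and 10.50 in OCP2 (-1.05 ± 0.18, adjusted p = 0.000391), while OCP3 averaged 13.28. Myh11 and Tagln, contractile genes of smooth muscle, differed by -1.37 ± 0.31 and -1.32 ± 0.22, and the adhesion gene Mcam by -1.16 ± 0.13. Pdgfrb, the receptor of mural cells and fibroblasts, rose by 0.68 ± 0.06 and the channel gene Kcnj8 by 0.61 ± 0.10. Acta2 differed by -0.94 ± 0.28 (adjusted p = 0.0242) and was not called without OCP2 replicate 1, OCP2 replicate 2, OCP4 replicate 1 or OCP4 replicate 4 (adjusted p 0.0617 to 0.0738). Summed intensity was 27001 to 32423 in OCP4 and 36979 to 41525 in OCP2.

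Skeletal muscle genes were lower for 9 of 18, and none rose, with a median of -0.48. Myh3, the embryonic myosin, differed by -0.85 ± 0.15, Pax7, the factor of muscle stem cells, by -0.68 ± 0.17 and Des by -0.65 ± 0.12, while Myod1, the factor that defines the lineage, was not called (-0.39 ± 0.22). The count was 5 without OCP2 replicate 2, and Pax7 was then not called (adjusted p = 0.0524). Summed intensity was 17294 to 25277 in OCP4 and 25910 to 30909 in OCP2.

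Blood cell, osteoclast and epithelial markers differed in how many were called. None of 15 haematopoietic genes was called in limma (2 had an unadjusted p under 0.05), with a median of 0.15, and Ptprc, the pan-leukocyte marker, differed by 0.06 ± 0.08. Summed intensity was 5553 to 7192 in OCP4 and 5184 to 6704 in OCP2. Without OCP2 replicate 2, 2 of these genes were called higher and without OCP4 replicate 1, 1 was, while 1 was lower without OCP2 replicate 3 or OCP4 replicate 2. Of 11 erythroid genes, 2 rose and 1 was lower, with a median of 0.08. Epor, the erythropoietin receptor, rose by 0.24 ± 0.06 and the transferrin receptor gene Tfrc differed by -0.80 ± 0.18. The count of higher erythroid genes was 1 without OCP2 replicate 2 or 3 or OCP4 replicate 3 or 4. Among 8 osteoclast genes, 3 rose and 1 was lower (2 without OCP4 replicate 2), with a median of 0.14. The increases were in the proteases Mmp9 (0.99 ± 0.13) and Ctsk (0.84 ± 0.09) and the receptor gene Tnfrsf11a (0.79 ± 0.07), and Acp5, which defines osteoclasts, was not called at -0.05. Of 11 keratinocyte genes, with a median of -0.11, none rose and Epcam was lower (-0.54 ± 0.08). The basal keratins Krt14 and Krt5 were not called, at 0.30 ± 0.22 and 0.22 ± 0.31. Summed intensity of the keratinocyte genes was 3581 to 6040 in OCP4 and 3602 to 6125 in OCP2.

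Adipocyte genes were lower for 5 of 10 and higher for 2, with a median of -0.26. Adipoq, a hormone of fat cells, differed by -1.23 ± 0.37, the fatty acid transporter Cd36 by -1.03 ± 0.22 and Fabp4 by -0.94 ± 0.24. Cebpb and Pparg, factors of the lineage, rose by 0.59 ± 0.09 and 0.37 ± 0.11. OCP2 replicate 2 had the highest Adipoq level, 11.01 beside 9.61 and 10.02 in the other OCP2 arrays. Without it the count of lower genes was 2, and Adipoq (adjusted p = 0.136) and Fabp4 (adjusted p = 0.0518) were not called, while without OCP4 replicate 1 the count was 3. Adipoq also lost its call without OCP4 replicate 1 or 4 (adjusted p 0.0609 and 0.0701). The count of higher genes was 1 without OCP2 replicate 1 or 3 or OCP4 replicate 1 or 2, and Pparg was then not called (adjusted p 0.0529 to 0.111). The part that each of these cell types has in the differences of other genes was not tested.

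**Figure D4:**
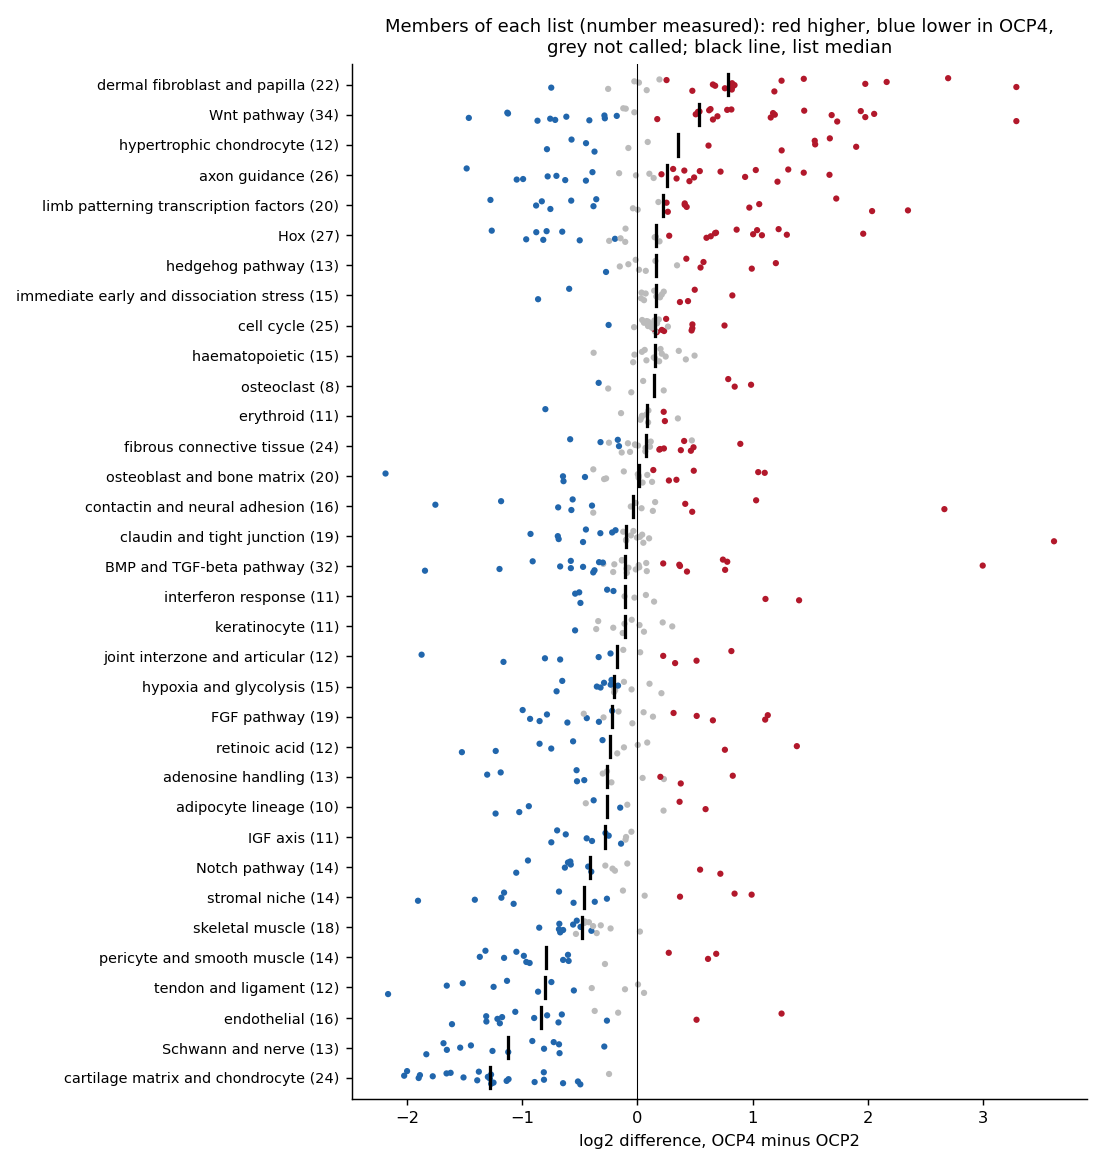
Log2 difference (OCP4 minus OCP2) of every measured member of the 34 gene lists, 1 point per gene, coloured by call, with the list median as a black line and lists ordered by it. The dermal list is at the top with a median of 0.79, and the cartilage list at the bottom with -1.28.

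Hedgehog targets rose. Hedgehog ligands release Smo from Ptch1 and act through Gli factors, and Ptch1 and Gli1 are direct targets that report the activity of the pathway. Of 13 genes, 5 rose and 1 was lower (2 without OCP4 replicate 1), with a median of 0.16. Ptch1 read 12.88, 12.92, 13.01 and 13.08 in OCP4, against 11.92, 11.67 and 11.72 in OCP2 (1.20 ± 0.08, adjusted p = 7.8e-08). Gli1 rose by 0.99 ± 0.07 and Gli2 by 0.55 ± 0.05. Boc, a co-receptor, was lower (-0.27 ± 0.06), and the ligand genes Shh and Ihh were not called, although Shh (0.16) was with arrays centred on their medians (adjusted p = 0.0359).

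The BMP and TGF-beta pathway held 8 increases and 11 decreases among 32 genes, with a median of -0.11. Bmp5, a ligand, read 9.44, 9.77, 10.21 and 9.75 in OCP4, against 11.72, 11.55 and 11.65 in OCP2 (-1.84 ± 0.14, adjusted p = 2.32e-07). The receptor gene Bmpr1b differed by -1.20 ± 0.11 and the ligand gene Tgfb2 by -0.91 ± 0.05. Tgfb1, Bmp7 and the co-receptor gene Tgfbr3 rose, by 0.78 ± 0.10, 0.76 ± 0.11 and 0.74 ± 0.05.

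Of 19 FGF pathway genes, 5 rose and 8 were lower, with a median of -0.22. The receptor gene Fgfr2 rose by 1.13 ± 0.09, the intracellular factor Fgf13 by 1.11 ± 0.08 and the ligand gene Fgf10 by 0.65 ± 0.12. Lower were the feedback inhibitor gene Spry4 (adjusted p = 9.57e-07) and the ligand genes Fgf18 (-0.93 ± 0.09) and Fgf1 (-0.85 ± 0.09).

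Of 14 Notch genes, 2 rose and 8 were lower, with a median of -0.41. The ligand genes Dll4, which endothelium expresses, and Jag1 differed by -1.05 ± 0.15 and -0.63 ± 0.09, and the feedback gene Nrarp by -0.95 ± 0.09. Dll1, another ligand gene, and the target gene Hey2 rose by 0.72 ± 0.12 and 0.54 ± 0.04.

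In the IGF axis, 8 of 11 genes fell and none rose, with a median of -0.28. Igf1, the ligand gene, read 12.43, 12.55, 12.64 and 12.59 in OCP4, against 13.24, 13.31 and 13.34 in OCP2 (-0.75 ± 0.06, adjusted p = 6.07e-07). Its receptor gene Igf1r differed by -0.39 ± 0.07 and the binding protein gene Igfbp7 by -0.70 ± 0.10. Pappa2, which is not in this list, was among the genes with the largest increases.

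Retinoic acid genes moved in both directions. Retinoic acid is made from retinal by Aldh1a enzymes and degraded by Cyp26 enzymes. Of 12 genes, 2 rose and 6 were lower, with a median of -0.24. The synthesis genes Aldh1a2 and Aldh1a3 differed by -1.52 ± 0.10 and -1.23 ± 0.10, and the receptor and target gene Rarb by -0.85 ± 0.08. The degradation gene Cyp26b1 read 10.75, 10.90, 10.71 and 10.86 in OCP4, against 9.54, 9.23 and 9.50 in OCP2 (1.38 ± 0.07, adjusted p = 5.95e-09).

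Axon guidance genes, which also guide other migrating cells, rose for 14 of 26 and were lower for 8, with a median of 0.26. Robo2, a receptor for Slit proteins, read 12.64, 12.53, 12.58 and 12.66 in OCP4, and averaged 10.93 ± 0.06 in OCP2 (SD, n = 3). The difference was 1.67 ± 0.07 (limma, adjusted p = 6.06e-10). The ligand gene Slit3 rose by 1.31 ± 0.07, the semaphorin gene Sema3d by 1.44 ± 0.15 and the ephrin gene Efna5 by 1.22 ± 0.08. The netrin receptor gene Unc5c and the ephrin receptor gene Epha5 were lower (-1.48 ± 0.16 and -1.05 ± 0.11).

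Cldn10, picked as a marker of OCP4, stood apart within its own family. Of 19 claudin and tight junction genes, it was the only one called higher in the main comparison, and 8 were lower, with a median of -0.10. Cldn5, the claudin of endothelium, and F11r, a junction adhesion molecule, differed by -0.69 ± 0.17 and -0.93 ± 0.18. The count of lower genes was 5 without OCP2 replicate 1 and 5 with arrays centred on their medians. Of 16 contactin and neural adhesion genes, 4 rose and 6 were lower, with a median of -0.04. Cntn4, a contactin known from the nervous system, read 10.84, 10.51, 10.56 and 10.61 in OCP4, against 7.81, 8.13 and 7.96 in OCP2 (2.66 ± 0.09, adjusted p = 1.38e-10). OCP1 averaged 7.62 and OCP3 7.50 for it. Nrcam rose by 1.03 ± 0.08, and Lgi1 was lower (-1.75 ± 0.18). Nlgn1 differed by -1.18 ± 0.09, with -0.08 for its dimmer probe set.

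Hox genes, whose clusters set position along the body and the limb axes, moved in both directions. Of the 27 listed, 12 rose and 8 were lower, with a median of 0.16, and of all 39 measured, 15 rose and 10 were lower. In the Hoxc cluster 7 of 9 rose and 1, Hoxc13, was lower (-0.38 ± 0.10, not called without OCP2 replicate 3, adjusted p = 0.0749, or with arrays centred on their medians, adjusted p = 0.0517). Hoxc8 read 11.11, 11.39, 11.13 and 11.18 in OCP4, against 9.24, 9.16 and 9.33 in OCP2 (1.96 ± 0.10, adjusted p = 3.41e-09). Hoxc5 and Hoxc4 rose by 1.30 ± 0.11 and 1.08 ± 0.09.

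The Hoxd cluster split along its length. Hoxd1, Hoxd3, Hoxd4 and Hoxd8 rose, by 0.68 to 1.23, Hoxd9 was not called (-0.10 ± 0.08), and Hoxd10 to Hoxd13 were lower, by -0.65 to -1.26. Hoxd13, which patterns the digits, read 8.71, 8.77, 9.05 and 8.92 in OCP4, against 10.32, 9.78 and 10.29 in OCP2 (-1.26 ± 0.17, adjusted p = 4.48e-05). In the Hoxa cluster 5 of 11 were lower and none rose, the 5 being Hoxa2, Hoxa3, Hoxa5, Hoxa6 and Hoxa7, with Hoxa5 at -0.97 ± 0.11. In the Hoxc cluster Hoxc10 and Hoxc11 rose, by 0.64 and 0.28. Of 10 Hoxb genes, 4 rose and none was lower, with Hoxb9 at 1.20 ± 0.06, and 7 rose with arrays centred on their medians or quantile normalisation run again. No cluster changed direction when arrays were centred on their medians or quantile normalisation was run again.

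**Figure D5:**
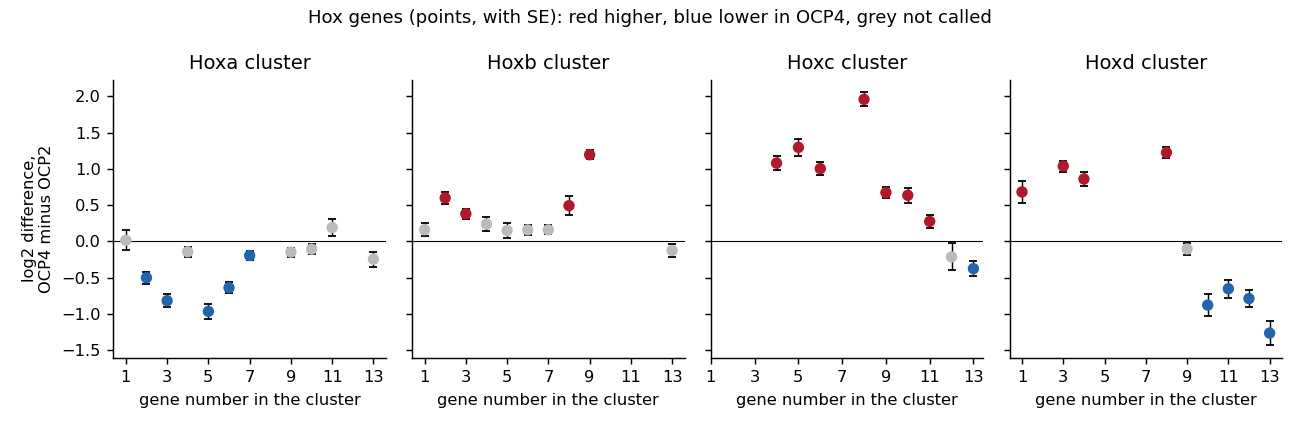
Log2 difference (OCP4 minus OCP2, with SE) of the 39 measured Hox genes against their number in each cluster, red for higher, blue for lower and grey for not called. The Hoxd genes numbered 8 and below lie above 0 and those numbered 10 and above lie below it.

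The probe set of Mir196a-1, a microRNA gene that lies between Hoxb13 and Hoxb9, was picked after its values were seen. It read 6.84, 6.48, 6.69 and 6.90 in OCP4, against 5.89, 5.61 and 5.88 in OCP2 (0.93 ± 0.11, adjusted p = 1.55e-05). Its RefSeq sequences (GRCm38.p6) are shown as for Mir140, with the mature arm at chr11:96265187-96265208, the hairpin at chr11:96265164-96265265 and the seed or arm in capitals.
mmu-miR-196a-5p: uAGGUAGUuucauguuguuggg
Mir196a-1 hairpin: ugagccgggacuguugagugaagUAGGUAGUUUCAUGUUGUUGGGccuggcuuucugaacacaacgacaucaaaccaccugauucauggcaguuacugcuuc

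In a separate list of 20 limb patterning factors, 10 rose and 7 were lower, with a median of 0.22. The highest difference in this list, 2.35, equals that of Irx5, which is reported above. The homeobox genes Prrx2 and Meis1 rose by 1.06 ± 0.06 and 0.97 ± 0.13. The hindlimb factors Tbx4 and Pitx1 were lower (-1.28 ± 0.13 and -0.88 ± 0.11), and so were Tbx2 (-0.83 ± 0.11) and, less, the forelimb factor Tbx5 (-0.36 ± 0.09).

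Cell cycle genes moved by small amounts. Of 25, 9 rose and 1 was lower, with a median of 0.15, and 16 rose with arrays centred on their medians or with a trended prior. Ccnd1, a cyclin of the first growth phase, rose by 0.48 ± 0.06, E2f1, a factor of S-phase genes, by 0.48 ± 0.05 and the mitotic kinase gene Bub1 by 0.47 ± 0.08. The inhibitor Cdkn1a rose by 0.76 ± 0.07 and Cdkn1c was lower (-0.25 ± 0.04), and Mki67, the usual marker of cycling cells, was not called (0.09 ± 0.06).

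Of 15 immediate early and dissociation stress genes, 4 rose and 2 were lower, with a median of 0.16, and 7 rose with arrays centred on their medians or with array weights. Hspa1a, a heat shock protein gene, rose by 0.82 ± 0.13, Nr4a1 by 0.50 ± 0.08 and the phosphatase gene Dusp1 by 0.44 ± 0.09, while Egr2 and Socs3 were lower (-0.86 ± 0.08 and -0.59 ± 0.07, with -0.34 for the dimmer probe set of Socs3). Summed intensity of this list was 107090 to 121964 in OCP4 and 88196 to 101734 in OCP2. The part that handling of the cells has in other differences was not tested.

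Hypoxia and glycolysis genes were lower for 8 of 15, and none rose, with a median of -0.20 (1 rose with arrays centred on their medians). Bnip3 differed by -0.70 ± 0.07, the glucose transporter gene Slc2a1 by -0.65 ± 0.09 and the glycolytic enzyme gene Eno1 by -0.32 ± 0.06, while Car9, a standard hypoxia target, was not called (-0.19 ± 0.11). In adenosine handling, the pathway of the sort marker CD73, 3 of 13 genes rose and 5 were lower, with a median of -0.26. Nt5e, the gene of CD73, is not in this list. Enpp1 and Entpd2, which hydrolyse extracellular nucleotides upstream of CD73, differed by -1.30 ± 0.12 and -1.19 ± 0.11, and the receptor gene Adora2a by -0.52 ± 0.13. Ada, which degrades adenosine, rose by 0.38 ± 0.05.

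Of 11 interferon response genes, 2 rose and 5 were lower, with a median of -0.11. Ifit2 and Ifit3, antiviral effectors, rose by 1.40 ± 0.08 and 1.11 ± 0.10. Oasl2, Rsad2 and Bst2, which are targets of the same response, differed by -0.54 ± 0.12, -0.51 ± 0.09 and -0.49 ± 0.09. Without OCP2 replicate 1, or with arrays centred on their medians, the count of lower genes was 3.

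The remaining genes with the lowest differences have varied roles. Asb4, an ankyrin repeat protein of a ubiquitin ligase, read 9.91, 10.37, 10.59 and 9.82 in OCP4, against 12.30, 12.32 and 12.31 in OCP2 (-2.13 ± 0.14, adjusted p = 7.01e-08). Lhfpl1 differed by -2.08 ± 0.15 and Adamtsl3, a matrix protein, by -1.98 ± 0.16. Coch, a secreted matrix protein of the inner ear, differed by -1.93 ± 0.10, Cxcl13, a chemokine that attracts B cells, by -1.93 ± 0.25, Dgkk, a lipid kinase, by -1.92 ± 0.10 and Gpr83, a receptor, by -1.90 ± 0.15. Prnd, a relative of the prion protein, differed by -1.94 ± 0.18 with its brighter probe set and by 0.08 with the other, so its change is uncertain. It averaged 9.75 in OCP4, 9.23 in OCP1, 9.64 in OCP3 and 11.69 in OCP2.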

How the data were processed

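The 14 arrays measured total RNA, labelled as biotin cRNA, of sorted cells from mouse limbs. Deposited values are linear intensities, 1 for each probe set of an array. The submitters' processing notes name RMA and limma without versions. Log2 of each intensity was taken here, where the planned test had assumed deposited log2 values. The authors' deposited comparison table gives gene symbols, log2 differences and adjusted p-values. Its differences matched those computed here to within 5.00e-08, and its signs have OCP4 on top, which is the reverse of what its headings say. An annotation build is not given in the sources used here.

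Of 35556 probe sets, 25254 had a symbol and 10302 had none, and 26 symbols turned into calendar dates were left unnamed. The brightest of a symbol's probe sets was used, for 21734 genes, of which 1920 had several. RefSeq held 18706 symbols as current and 2293 as synonyms, and 735 were unmatched. The values of 701 rows were identical to another row.

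The fit had a mean for each of the 4 groups, over all 14 arrays (limma 3.58.1, run in R 4.3.3 with statmod 1.5.0), with 10 residual degrees of freedom, eBayes and Benjamini-Hochberg adjustment over all genes. The threshold was 0.05. The number of arrays limits the precision. The SD of the difference between 2 replicates was 0.146 to 0.201. The script was tested on simulated data.

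The 34 lists (583 entries, 578 measured, 552 genes) and the members were chosen with earlier results of these data known. Named were the 15 genes with the largest difference in each direction among called genes whose groups did not overlap, the sort genes, the 3 markers, up to 5 called members of each list with the largest differences, cell-type defining members whether called or not, and pathway members by role. Alternatives were median centring, a second quantile normalisation, a replicate block, only the 7 arrays, a trended robust prior, array weights, leaving out genes of low mean level, averaging probe sets, and leaving out each array. Some genes that this rule selects are not reported here.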

Additional observations from a re-analysis of the deposited data

Results flagged for a closer look

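In 10 of 236 genes, 1 OCP4 array stood far from the other 3 by Dixon's test at the 95% level. Chance flags about 1 in 20 such groups. OCP4 replicate 3 was high for Acan (11.95) and Car9 (8.25) and low for Gli2 (11.59). OCP4 replicate 2 was low for Cldn10 (10.63), Dmp1 (7.54), Efna5 (12.28) and Igf1r (11.62). OCP4 replicate 4 was high for Dkk1 (12.31) and low for Gli1 (11.43), and OCP4 replicate 1 was low for Jag1 (10.60). The 3 OCP2 arrays were not tested in this way.

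The CD73 difference in Thy1+ cells was not that in Thy1- cells for 5 of the 17 genes examined, by the interaction term in limma. All 17 were picked as sort genes, markers of OCP4 or genes with the largest differences. Genes outside the 17, such as Adh7 and Irx1, also had called interactions. The gap between both differences was 3.25 for Cldn10, 2.03 for Dkk1, 1.38 for Twist2 and 0.89 for Thy1, each larger in Thy1+ cells, and -0.82 for Cd9, where the difference was lower in Thy1+ cells.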

How the results depend on the processing

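Centring arrays on their medians raised the genes called higher in OCP4 to 3753, against 2258, with 62.1% of calls higher against 43.0%. All other alternatives kept the counts within 1.5 times: 4478 to 5065 genes called with 1 array left out (1875 to 2185 higher, 2579 to 2880 lower, 482 to 566 at least 2-fold) and 4702 to 6040 otherwise. The interaction was called for 3237 to 3696 genes with 1 array left out and 3690 to 4507 otherwise. Of 236 named genes, 220 kept their direction and their side of the threshold under all 15 alternatives and 16 did not. Signs turned for uncalled genes with 1 array left out, where Alpl ran from -0.07 to 0.17, Krt5 from -0.11 to 0.41, Pdgfra from -0.00 to 0.03 and Ptprc from -0.03 to 0.16, and for the uncalled interactions of Cilp (-0.10 to 0.08) and Matn1 (-0.23 to 0.16). Pdgfra was -0.01 after a second quantile normalisation. The interaction of Nt5e was called under the replicate block, array weights or the gene filter (adjusted p 0.026 to 0.0454). The cause was not tested.

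The groups share replicate numbers 1 to 3, but deviations of same-numbered arrays correlated at -0.27, 0.06 and -0.08 and 0 of 3 OCP2 arrays correlated best with their own number, so the numbers were not taken as pairs. With the number as a replicate block, 4767 genes were called (2023 higher, 2744 lower), and 3690 interactions, and Lrp5 was not (adjusted p = 0.0679).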
